A study of Mus musculus with 3 samples.

Results

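The heat shock protein and J protein genes are the 78 protein-coding genes whose symbols begin with Hspa, Hspb, Hspd, Hspe, Hsph, Hsp90, Dnaja, Dnajb or Dnajc and a further number or letter, with the addition of Hsf1, Hsf2, Bag3 and Chordc1. They were drawn from 22028 protein-coding genes among 55536 annotated genes. The symbol pattern also takes in Hspbap1 and Hspbp1, which encode partners of heat shock proteins and not chaperones. The set was selected on measured values, the differences of Hspa1a and Hspa1b between libraries, so those differences are given below as a description, with no test.

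The data are total RNA-seq of 3 libraries made from chromatin fraction RNA of mouse bone-marrow-derived macrophages, with ribosomal RNA depleted. Macrophages of this kind are grown from marrow precursors in culture. The cells came from strain C57BL/6J, with sex and age not collected. All 3 libraries belong to 1 group: Lipid A at 100 ng/ml for 12 h, a washout of 12 h, then Lipid A again at 100 ng/ml for 40 min. Lipid A is the part of bacterial lipopolysaccharide that Toll-like receptor 4 recognises. Every library therefore carries both exposures, and no unexposed or once-exposed library is analysed here. The labels number the libraries as biological replicates 1, 2 and 3 but give them the same strain-level donor, so the spread measures only how these samples differ. Library preparation started from 1 µg of RNA in replicate 1, from 250 ng in replicate 2 and from 500 ng in replicate 3. Chromatin RNA is rich in transcripts still attached to the template, so its levels lie closer to synthesis than those of whole-cell RNA, but synthesis was not measured separately.

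Molecular chaperones bind unfolded stretches of other proteins and keep them from aggregating. The HSP70 proteins do so in a cycle of ATP binding and hydrolysis that J proteins, the DNAJ family, start by stimulating the ATPase, and that nucleotide exchange factors such as the HSP110 proteins complete. HSP90 proteins act later on kinases, receptors and other clients. Heat shock factor 1, encoded by Hsf1, is held in check by chaperones in unstressed cells, and on proteotoxic stress it binds heat shock elements, inverted repeats of the unit nGAAn, and induces Hspa1a, Hspa1b, Hsph1, Dnajb1 and others.

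The libraries held 13802716, 17187524 and 16502809 expected counts in annotated genes for replicates 1, 2 and 3. Of the 10 macrophage markers listed, all 10 reached a mean of at least 10 counts, the level used throughout for a gene called detected. Markers of neutrophils, T cells and B cells reached it for 0 of 5 genes each, and all 5 natural killer cell markers had 0 counts in every library. Of 5 endothelial markers 1 was detected, Kdr, and the summed level of that list was 35.1, 9.26 and 11.6 CPM (the count as a rate on the library total, scaled with TMM factors) in replicates 1, 2 and 3. Of 5 fibroblast markers 3 were detected, Col1a1, Col1a2 and Col3a1, all at 0 counts in replicate 1, and the list summed to 0.0731, 3.90 and 5.62 CPM. Of 5 erythroid markers 1 was detected, Alas2, with Hba-a1 at 0 counts in every library. In bulk samples, fewer cells of a type and less RNA per cell cannot be told apart.

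Promoter windows are shown for 3 heat-inducible genes that behaved differently between the libraries: Hspa1a, with one of the largest differences in the set, Hsph1, which was also highest in replicate 1, and Chordc1, which hardly differed. The windows come from RefSeq on GRCm38.p6 and run from 250 bases before the start of transcription to 50 after it. Capitals mark matches to GAANNTTC or TTCNNGAA, the 2 ways in which a pair of nGAAn units can face each other. Each word is its own reverse complement, so both strands were searched at once. Matches of the 2 words may overlap.
Hspa1a (chr17:34972107-34972406, minus strand): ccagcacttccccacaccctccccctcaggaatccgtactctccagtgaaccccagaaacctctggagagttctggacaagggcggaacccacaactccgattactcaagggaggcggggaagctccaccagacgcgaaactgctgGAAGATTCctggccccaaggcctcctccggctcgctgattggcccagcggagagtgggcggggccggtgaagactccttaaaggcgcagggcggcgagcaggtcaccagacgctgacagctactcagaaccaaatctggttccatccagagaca
Hsph1 (chr5:149636287-149636586, minus strand): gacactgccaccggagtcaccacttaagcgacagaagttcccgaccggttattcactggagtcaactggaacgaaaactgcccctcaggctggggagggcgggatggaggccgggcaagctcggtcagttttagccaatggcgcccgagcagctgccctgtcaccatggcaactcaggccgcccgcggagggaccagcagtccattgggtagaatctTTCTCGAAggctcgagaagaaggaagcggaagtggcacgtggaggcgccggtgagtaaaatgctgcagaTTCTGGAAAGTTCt
Chordc1 (chr9:18292017-18292316, plus strand): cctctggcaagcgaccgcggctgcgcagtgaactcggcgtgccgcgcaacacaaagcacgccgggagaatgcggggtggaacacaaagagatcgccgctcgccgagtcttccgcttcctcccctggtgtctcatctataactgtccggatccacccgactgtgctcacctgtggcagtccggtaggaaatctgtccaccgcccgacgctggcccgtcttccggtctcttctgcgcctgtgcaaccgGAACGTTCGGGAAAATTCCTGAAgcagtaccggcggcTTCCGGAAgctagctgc

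The Hspa1a window held 1 such word, GAAGATTC, with its first base at -104 counted from the start. The Hspa1b window on the same chromosome held the same word at the same place, and the windows of these genes differed at 4 of 300 bases. The Hsph1 window held 3 words, at -33, 37 and 42. In the Chordc1 window there were 5, at -4, 2, 7, 12 and 34, most of them running into one another. Of the 78 genes, 63 matched the RefSeq promoter table by symbol, and 18 of these had either word in at least 1 window (28.6%), against 17% of all 27025 genes in the table. Of the 19 heat-inducible genes listed as HSF1 targets, 16 matched and 12 held a word (75%). These 12 are among the 18, so most genes of the set with a word came from the list. The others were Dnajb6, Dnajc10, Dnajc27, Dnajc5g, Hspb3 and Hspb6. A share for the set without the list was not computed. The longer words of 3 units are those in which GAANNTTC runs on into NNGAA or TTCNNGAA into NNTTC. They stood in the windows of 5 of the 63 matched genes of the set (7.94%), 4 of the 16 matched heat-inducible genes (25%) and 0.662% of all genes. The 5 and the 4 include Hspd1 and Hspe1, whose windows overlap on opposite strands of chromosome 1. Nearly the same stretch is thus counted for each, also in the shares above. A match describes letters in this window and was not measured as binding.

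Of the 78 genes 64 were detected (82.1%), against 49.7% of all protein-coding genes. A further 9 had some counts but a mean under 10, and 5 had 0 counts in all libraries: Dnajc5b, Dnajc5g, Hspb2, Hspb3 and Hspb8. For such genes counting error alone leaves room for 3 counts, equal to 0.217, 0.175 and 0.182 CPM in replicates 1, 2 and 3 before TMM scaling. The median level of all 78 was 4.06 TPM (a level per transcript length, with the same total in each library), against 0.44 TPM for all protein-coding genes. Above the 90th percentile of protein-coding genes by TPM were 13 of the 78, against 10% of all genes. Together the 78 took 0.373%, 0.345% and 0.354% of the counts in protein-coding genes in replicates 1, 2 and 3, a mean of 0.357% ± 0.0142 (SD, n = 3).

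**Figure D1:**
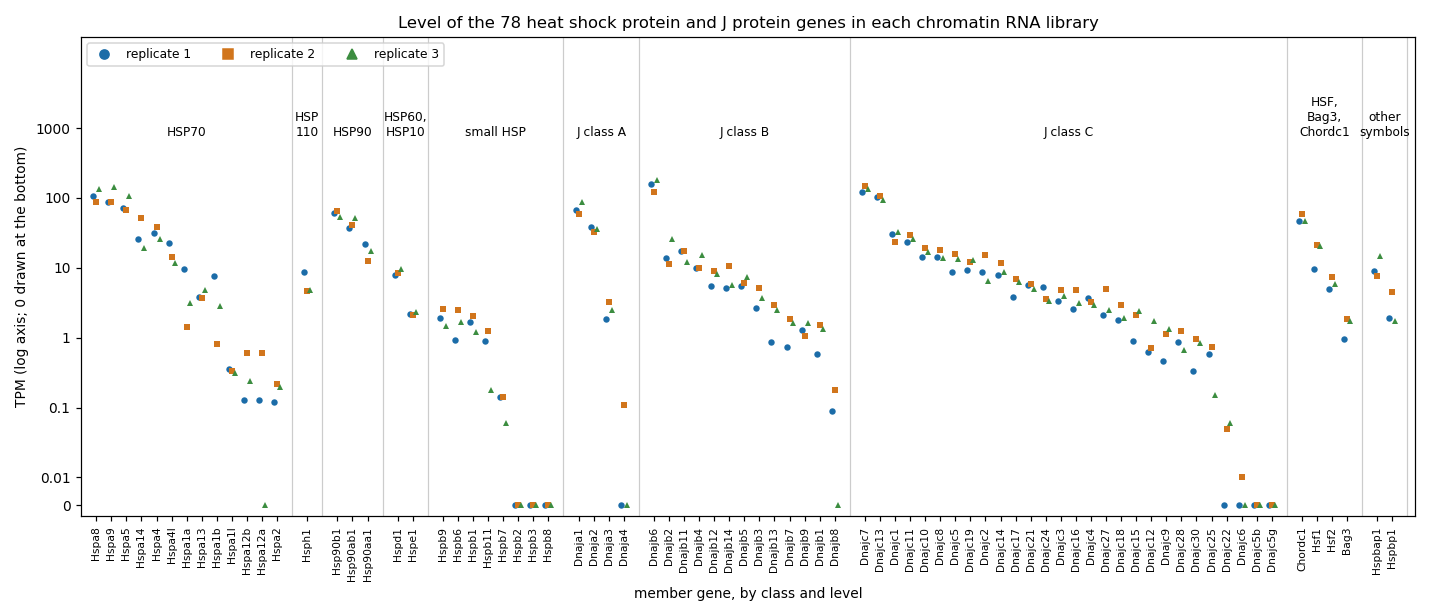
Level of each of the 78 genes in TPM on a log axis, 1 point per library, ordered within each class by mean level, with 0 drawn at the bottom. Dnajb6, Dnajc7 and Hspa8 were near or above 100 TPM in the libraries, while Hspa1a and Hspa1b stood out among the detected HSP70 genes for the distance between their points.

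The HSP70 class had 13 genes, 10 of them detected, and summed to 392 ± 55.1 TPM (SD, n = 3), which was 28.6% of the TPM of all 78. The class follows gene symbols, so it includes the HSP110-type Hspa4 and Hspa4l, at means of 32.0 and 16.2 TPM. Its most abundant genes were the constitutive ones. Hspa8 encodes the cytosolic HSC70 that most cells make without stress, and stood at 107, 86.7 and 135 TPM in replicates 1, 2 and 3. Hspa9, the mitochondrial HSP70 (mortalin), stood at 87.5, 88.7 and 144 TPM. Hspa5, the endoplasmic reticulum HSP70 known as BiP, stood at 72.0, 66.2 and 108 TPM. These were all highest in replicate 3. Hspa14, a ribosome-associated relative, had 26.0, 51.4 and 19.3 TPM, highest in replicate 2. It shares 7.91% of its exon bases with Gm45902 on the same strand, so reads there may have been split between them.

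Hspa1a and Hspa1b encode the stress-inducible cytosolic HSP70 and are neighbouring single-exon genes on the minus strand of chromosome 17, at 34969190 to 34972156 and 34956436 to 34959238 (mm10). Hspa1a had 374, 54.2 and 113 expected counts in replicates 1, 2 and 3, or 9.70, 1.40 and 3.11 TPM. Hspa1b had 279, 29.8 and 95.9 expected counts, or 7.68, 0.82 and 2.81 TPM. Both were highest in replicate 1 and lowest in replicate 2. Of the 50-base words in the Hspa1a transcript 58.8% also occur in that of Hspa1b, and 62.3% the other way round, so the division of reads between them is uncertain. Their sum does not depend on it.

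The summed count was 652, 84.0 and 209, which scaled to 47.7, 4.55 and 13.5 CPM in replicates 1, 2 and 3. The exact Poisson 95% intervals of these sums ran from 44.0 to 51.4, from 3.63 to 5.63 and from 11.7 to 15.5 CPM, with no overlap, and cover counting error only. From highest to lowest library the sum differed by 3.38 on the log2 scale, or 10.4-fold. For the genes one by one the difference was 3.20 for Hspa1a and 3.63 for Hspa1b, and Hspa1a held 57.3%, 64.6% and 54.1% of the summed count. Among 10952 detected protein-coding genes these spans ranked 28 and 24, and among the 7003 with a mean of at least 100 counts they ranked 5 and 3. In replicates 2 and 3 alone, without the high replicate 1, the sum still differed by 1.55 on the log2 scale, and without replicate 2 by 1.82. In the tables made directly from the reads, the spans were 3.41 and 3.83.

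The order of the libraries in Hspa1a and Hspa1b, replicate 1, then 3, then 2, was also the order of their RNA input of 1 µg, 500 ng and 250 ng. Replicate 1 also had the highest summed endothelial markers, the lowest fibroblast markers and the largest share of counts in the mitochondrial genome (0.0491%, 0.0305% and 0.0388%). Entries that name no gene took 1.13%, 0.324% and 0.279% of counts. The part of any of these in the difference was not tested. Replicate 1 was at least 2-fold above both other libraries for 9 of 216 detected single-exon protein-coding genes (4.17%). Hspa1a and Hspa1b, which led to the choice of the set, are among the 9, and a share without them was not computed. For 10 of the 216 (4.63%) replicate 1 was at least 2-fold below both. Over all detected protein-coding genes the shares were 0.575% above and 0.913% below. These shares are not matched for depth: detected single-exon genes had a median of 37 counts, against 195 for all detected protein-coding genes. Hspa1a and Hspa1b had means of 180 and 135 counts.

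Hspa1l, the HSP70 gene next to them that in mice is known from the testis, had 0.36, 0.33 and 0.31 TPM, with no such difference. Its mean of 10.4 counts was barely over the detection level, 71.9% of its exon bases lie opposite Gm10501, and 7.95% of the Hspa1a words also occur in its transcript. Hspa4, an HSP110-type exchange factor, had 76.6, 82.3 and 58.0 CPM, and its relative Hspa4l had 71.6, 37.7 and 43.7 CPM. Hspa4l was highest in replicate 1, with a span of 0.92 on the log2 scale. The counting intervals of its replicates 2 and 3 overlapped, and by TPM, at 22.4, 14.4 and 11.9, its lowest library was replicate 3. Hspa13, a microsomal HSP70, had 12.9, 9.31 and 13.1 CPM. Under 10 counts lay Hspa2, a germ-cell HSP70, with Hspa12a and Hspa12b.

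Hsph1 encodes HSP110 (HSP105), the heat-inducible exchange factor, on chromosome 5 at 149614287 to 149636376. It had 16.4, 5.30 and 7.17 CPM in replicates 1, 2 and 3. Replicate 1 lay above both other libraries, whose counting intervals overlapped. Its span of 1.62 on the log2 scale ranked 322 of the 10952 detected genes. Replicate 1 was at least 2-fold above both other libraries for 3 of the 64 detected genes of the set (4.69%), Hspa1a, Hspa1b and Hsph1, against 0.575% of all detected protein-coding genes. It was at least 2-fold below both for another 3, Dnajb13, Dnajc9 and Dnajc30, against 0.913%. Nothing is read from these shares, as the set was chosen for the first difference.

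The 3 HSP90 genes were all detected and summed to 120 ± 2.57 TPM (SD, n = 3). Hsp90b1, the endoplasmic reticulum HSP90 (GRP94), had 60.9, 64.8 and 53.5 TPM, and Hsp90ab1, the constitutive cytosolic form, had 36.8, 40.8 and 52.1 TPM. Hsp90aa1, the inducible cytosolic form, had 21.7, 12.7 and 17.5 TPM. On the CPM scale Hsp90aa1 stood at 39.5, 17.8 and 30.5, a span of 1.15 on the log2 scale, while Hsp90ab1 stood at 44.9, 36.9 and 48.7, a span of 0.40. Hsp90aa1 was lowest in replicate 2 on both scales, whereas Hsp90ab1 was lowest in replicate 2 by CPM and in replicate 1 by TPM.

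Hspd1 and Hspe1 encode the mitochondrial chaperonin HSP60 and its lid HSP10 from a shared promoter region. Hspd1 had 7.88, 8.43 and 9.68 TPM and Hspe1 had 2.19, 2.14 and 2.30 TPM. Hspe1 rested on a mean of 19.3 counts, and the tables made from the reads gave it 14.2 TPM.

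Small heat shock proteins hold unfolded proteins in oligomers without using ATP. Of 8 genes 3 were detected, all low: Hspb9 at a mean of 1.99 TPM, Hspb6 at 1.68 TPM and Hspb1, the inducible HSP25, at 1.64 TPM. Hspb1 had 1.24, 1.03 and 0.71 CPM with overlapping counting intervals, so a difference was not detectable at this depth. Hspb11, an intraflagellar transport protein in spite of its symbol, had a mean of 0.77 TPM and 9.33 counts. Hspb7 had a mean of 4 counts.

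The J proteins were the largest group. Class A proteins have the domain layout of the bacterial DnaJ, class B lack its zinc finger, and class C share only the J domain. In class A, Dnaja1 had 67.2, 58.8 and 86.2 TPM and Dnaja2 had 38.7, 32.6 and 35.8 TPM. Dnaja3, the mitochondrial member, averaged 2.53 ± 0.665 TPM (SD, n = 3). Dnaja4 was not detected, and 44.1% of its exon bases lie opposite Wdr61.

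In class B 12 of 13 genes were detected. Dnajb6, a suppressor of polyglutamine aggregation, was the most abundant of all 78 genes at 158, 121 and 181 TPM. Dnajb2, a J protein with ubiquitin-binding motifs, had 14, 11.3 and 26.2 TPM, Dnajb11, a BiP partner in the endoplasmic reticulum, 17.5, 17.2 and 12.2 TPM, and Dnajb4 10.1, 9.80 and 15.2 TPM. Dnajb1 encodes HSP40, the main heat-inducible partner of HSP70. It had 23, 60 and 49 counts and 1.68, 3.25 and 3.16 CPM. Dnajb1 was thus lowest where Hspa1a and Hspa1b were highest, although its counting intervals overlapped. Dnajb13, a sperm-flagellum protein, had 2.11, 5.37 and 5.0 CPM and shares 11.2% of its exon bases with Ucp2 on the opposite strand, a gene of 525 counts on average.

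Class C held 28 genes, 24 of them detected, and 29.7% of the TPM of the set. Dnajc7, which binds both HSP70 and HSP90, had 123, 148 and 135 TPM. Dnajc13, an endosomal protein, had 102, 108 and 93.3 TPM, and the highest counts of the set (a mean of 5695). Dnajc1, a protein of the endoplasmic reticulum membrane, followed at 31.0, 23.6 and 32.2 TPM, and Dnajc11, of the mitochondrial outer membrane, at 23.3, 30 and 25.7 TPM. In contrast, the class members with the largest spans were of low level. Dnajc25 had 1.24, 1.79 and 0.49 CPM, Dnajc12 had 1.53, 1.35 and 3.68 CPM, and Dnajc9, a histone chaperone, had 0.37, 0.97 and 0.97 CPM. Their mean counts were 19.2, 34.3 and 12.7. Dnajc6 and Dnajc22, like Dnajb8 of class B, averaged under 1 count.

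The heat shock factors and regulators were all detected. Hsf1 had 9.69, 21.4 and 20.7 TPM, lowest in replicate 1, and 17.2, 26.0 and 28.5 CPM, with the intervals of its lowest and highest library apart. Hsf2, a second factor, had 12.0, 12.7 and 10.5 CPM. Bag3, which couples HSP70 to selective autophagy and is itself heat-inducible, had 2.34, 3.36 and 3.42 CPM with overlapping intervals. Chordc1, the HSP90 cochaperone morgana, had 60.1, 57.0 and 54.8 CPM, a span of 0.13 on the log2 scale. Its promoter window is the one with 5 heat shock words shown above. Among the other symbols matched, Hspbap1 had 41.0, 26.1 and 56.6 CPM and Hspbp1, an exchange factor, had 1.83, 2.98 and 1.49 CPM.

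Across the set, 13 of the 64 detected genes differed by at least 2-fold between their highest and lowest library (20.3%), against 13.2% of all detected protein-coding genes. The counting intervals of highest and lowest library were apart for 37 (57.8%), against 52.3%. The median span was 0.69 on the log2 scale, against 0.45. Since Hspa1a and Hspa1b led to the choice of the set, the values without them are given too: 11 of 62 genes past 2-fold (17.7%) and 35 apart (56.5%). The 8 largest spans were those of Hspa1b, Hspa1a, Dnajc25, Hsph1, Dnajc12, Dnajc9, Dnajb13 and Dnajb2. The set was highest in replicate 1 for 22 genes (34.4%), in replicate 2 for 24 (37.5%) and in replicate 3 for 18 (28.1%), against 29.1%, 40.9% and 30% of all detected protein-coding genes. The highest values were thus spread over all 3 libraries. Leaving out any 1 library left 8 genes past 2-fold, and without replicate 2 the intervals were apart for 23. A span over fewer libraries is hardly ever larger, so lower counts follow largely from the measure. The share of all genes was not recomputed on fewer libraries.

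**Figure D2:**
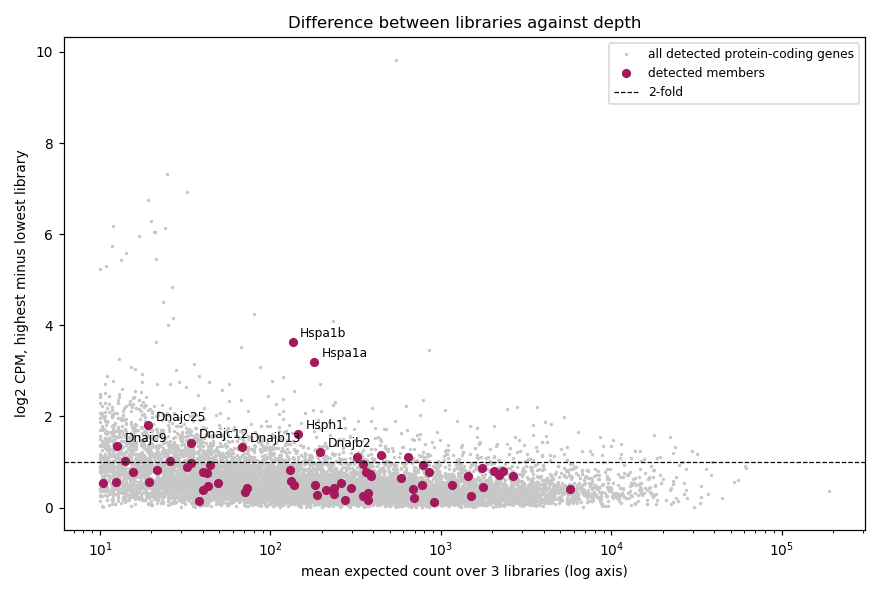
Difference between the highest and the lowest library on the log2 CPM scale against the mean expected count on a log axis, for 10952 detected protein-coding genes in grey and the 64 detected members in colour. Hspa1b and Hspa1a lie at 3.63 and 3.20, above nearly all genes of like count, and the dashed line marks 2-fold.

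The 19 heat-inducible chaperone genes are a list of commonly cited HSF1 targets inside the set, chosen with earlier results of these data known. Their shares are given as a description, and the genes were looked at one by one. Of these 17 were detected and 5 passed 2-fold (29.4%), against 13.2% of all detected protein-coding genes: Hspa1a, Hspa1b, Hsph1, Hsp90aa1 and Dnajb2. Without the pair for which the set was selected the count was 3 of 15 (20%). By CPM, replicate 2 was the lowest library for 12 of the 17 (70.6%), against 36.1% of all detected protein-coding genes, replicate 1 for 2 (11.8%), against 30.6%, and replicate 3 for 3 (17.6%), against 33.3%. Replicate 1 was the highest for 9 (52.9%), against the 29.1% given above. Without Hspa1a and Hspa1b, replicate 2 was the lowest for 10 of 15 (66.7%) and replicate 1 the highest for 7 (46.7%). By TPM, a scale added after the data were seen, replicate 2 was the lowest for 9 of the 17 (52.9%) and for 7 of 15 without the pair (46.7%). The libraries are less evenly matched on that scale, where replicate 2 was the lowest for 14.1% of all detected protein-coding genes and replicate 1 for 64%. Hsp90ab1 and Hspd1 were then lowest in replicate 1, and Hspa4l in replicate 3. The median difference of replicate 2 minus replicate 1 over the list was -0.56 on the log2 scale, or -0.43 without Hspa1a and Hspa1b, against 0.03 for all detected protein-coding genes. Scaled by the protein-coding total, the median of the whole list was -0.31, but that scaling shifts all genes nearly alike. The median of all genes was not recomputed on it, so -0.31 has no background here. With the TMM scaling, replicate 3 minus replicate 1 had a median of -0.13, or -0.03 without Hspa1a and Hspa1b, against -0.01.

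Low replicate 2 values were shared by abundant genes of the list. Hspa8 had 191, 123 and 198 CPM in replicates 1, 2 and 3, and Dnaja1 had 154, 101 and 166 CPM. Dnajb4 stood at 24.9, 19.0 and 30.9 CPM and Dnajb2 at 12.6, 7.52 and 17.6 CPM. By CPM, replicate 3 was the highest for each of these genes, but for Hspa8 and Dnaja1 its counting interval overlapped that of replicate 1. In the read-based tables replicate 1 was the highest for these 2, at 106 against 96.0 TPM in replicate 3 for Hspa8 and 106 against 99.3 TPM for Dnaja1. Replicate 3 stayed the highest there for Dnajb4 and Dnajb2. Against the pattern of low replicate 2 values, Hspa4 was highest in replicate 2, and Dnajb1 and Bag3 were lowest in replicate 1. Of the 17 detected genes of the list, an excess of at least 2-fold in replicate 1 over both other libraries was seen for Hspa1a, Hspa1b and Hsph1 alone. Outside the list, Hspa5 at 141, 92.9 and 163 CPM and Dnajb6 at 174, 101 and 174 CPM were also lowest in replicate 2. Of all 64 detected members, that library was the lowest for 26 (40.6%), replicate 1 for 16 and replicate 3 for 22. The list was chosen with earlier results of these data known.

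**Figure D3:**
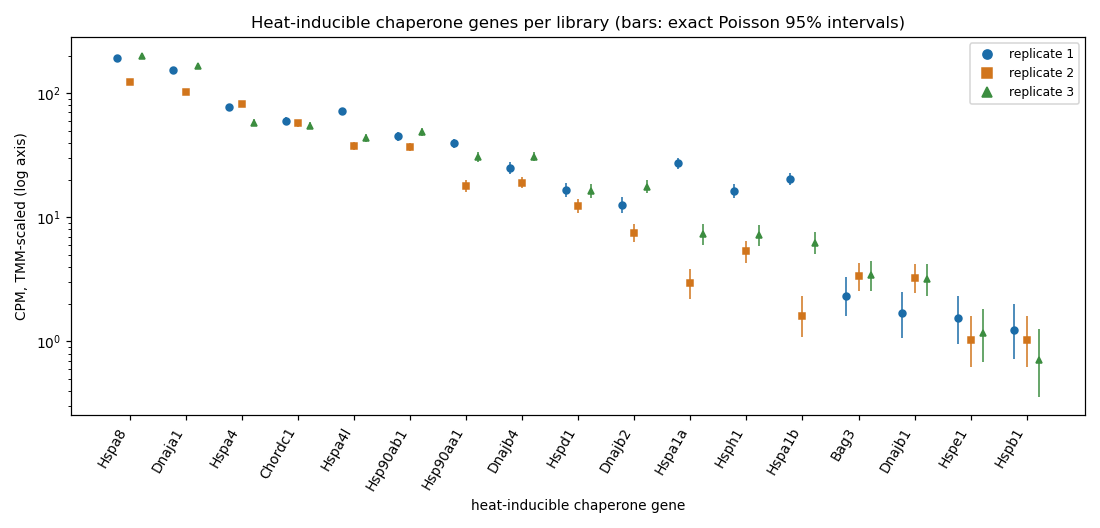
CPM on a log axis of the 17 detected heat-inducible chaperone genes in each library, with exact Poisson 95% intervals as bars. Hspa1a, Hspa1b and Hsph1 show replicate 1 well above the other libraries, whereas Hspa8 and Dnaja1 show replicate 2 below them, and Dnajb1 and Bag3 have replicate 1 lowest.

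Genes of neighbouring pathways were read from lists of their own. Of 22 other cochaperones 21 were detected and 1 passed 2-fold (4.76%, with the same 13.2% as background), Hikeshi, the nuclear import carrier of HSP70, at 1.75, 3.57 and 1.49 CPM. Bag6, a quality-control factor for membrane proteins, was the most abundant at 78.6, 107 and 102 TPM, followed by Ppid and Cdc37, both HSP90 partners, at means of 23.3 and 21.5 TPM. Large spans after Hikeshi were those of Bag4, at 3.51, 6.37 and 5.08 CPM, and of Stip1, which links HSP70 to HSP90, at 27.1, 15.2 and 26.3 CPM.

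The cytosolic chaperonin TRiC folds actin and tubulin. All 7 of its genes found were detected, 0 passed 2-fold, against 13.2% of all detected protein-coding genes, and 0 had counting intervals apart, against 52.3%. With so few genes, 0 past 2-fold is near the background share. Cct8, Cct4 and Cct2 led at means of 28.8, 23.8 and 22.3 TPM. Cct2, Cct7 and Cct8 had the largest spans, from 0.31 down to 0.19 on the log2 scale. The median span of the list was 0.17 on the log2 scale, against 0.45 for all detected protein-coding genes.

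Of 18 genes of the unfolded protein response of the endoplasmic reticulum 16 were detected. Past 2-fold was 1 (6.25%, with the same 13.2% as background), Creld2, at 1.83, 1.89 and 0.78 CPM. Next were Eif2ak3, the kinase PERK, at 7.88, 9.54 and 5.75 CPM and Manf at 6.06, 4.06 and 3.84 CPM. Ern1, the sensor IRE1, Sel1l, of the degradation machinery, and Atf4 led by level at means of 63.3, 58.8 and 44.2 TPM. Ddit3, the factor CHOP, was listed at 0 in the gene tables, but stood at 41.2 TPM in the tables made from the reads. Of 10 mitochondrial protein-quality genes 9 were detected and 0 passed 2-fold, with the same 13.2% as background. With so few genes, 0 is near that share. Yme1l1 and Htra2, both proteases, and Trap1, the mitochondrial HSP90, led at means of 52.8, 29.2 and 21.6 TPM, and the largest spans were 0.81 for Grpel1, 0.72 for Grpel2 and 0.60 for Clpx.

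Of the other heat shock factors and crystallins 2 of 5 were detected, Hsf4 at a mean of 1.76 TPM and Hsf3 at 1.47 TPM. Hsf5 averaged 0.117 TPM, and the crystallin genes Cryaa and Cryab were at 0 counts. Among 8 ubiquitin and stress effector genes 7 were detected and 1 passed 2-fold (14.3%), near the 13.2% of all detected protein-coding genes. Sqstm1, the autophagy receptor p62, was that gene, at 539, 335 and 851 CPM, with its lowest value in replicate 2. Atf3 had 105, 58.6 and 98.0 CPM and was also lowest in replicate 2, whereas Hmox1 was highest there at 10.7, 14.7 and 8.07 CPM. Replicate 2 was the lowest library for 5 of the 7 detected effector genes (71.4%), against 36.1% of all detected protein-coding genes. These are few genes, and the neighbouring lists varied. The share was 28.6% of the 21 detected other cochaperones, 0% of the 7 TRiC genes and 33.3% of the 9 mitochondrial genes. It was 43.8% of the 16 unfolded protein response genes and 100% of the 2 other heat shock factors.

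Chromatin RNA holds unspliced and partly spliced transcripts, so the assignment of reads to isoforms matters. Of the detected genes 49 have both protein-coding transcripts and transcripts annotated otherwise, such as retained introns. At least 50% of their TPM lay outside protein-coding transcripts for 24 of the 49 (49.0%), against 46.2% of 8892 detected protein-coding genes of this kind, and the medians were 46.3% and 47.4%. The highest shares were 100% for Hspb6, 95.6% for Hspbap1, mostly a transcript annotated for nonsense-mediated decay, 88.7% for Dnajc12, 81.5% for Dnajb5 and 80.9% for Dnaja1. These are values of the transcript tables in the same layout as the gene tables. In the tables made from the reads, Dnajc12 had 15.5%, with a protein-coding transcript in the lead, and Hspb6 had 57.7%, while Hspbap1 had 96.6%, Dnajb5 83.7% and Dnaja1 70.5%. For Hspa8 the share was 61.5%, 59.3% and 60.8% in replicates 1, 2 and 3. Hsph1 had 71.3%, 74.9% and 77.9%, most of it in retained-intron transcripts.

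Agreement of the 2 quantifications over the 64 detected genes was described by a Spearman correlation of 0.94 of mean log2(TPM + 1), from the same reads. The gene tables and the read-based tables were furthest apart for Dnajc12 (1.03 against 7.07 TPM), Hspe1 (2.21 against 14.2 TPM), Dnajc28 (0.933 against 4.5 TPM), Dnajc14 (9.37 against 30.6 TPM) and Dnajb6 (153 against 475 TPM), each higher in the tables made from the reads. Dnajc14 shares 17.0% of its exon bases with Ormdl2 on the opposite strand. Hspa12b, under the detection level in the gene tables at a mean of 0.327 TPM, had 20.2, 22.6 and 23.5 TPM in the tables made from the reads. Hspa1a and Hspa1b were slightly lower there, at means of 3.73 and 3.14 TPM against 4.74 and 3.77 TPM in the gene tables. Levels of these genes are therefore given with the table they come from.

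**Figure D4:**
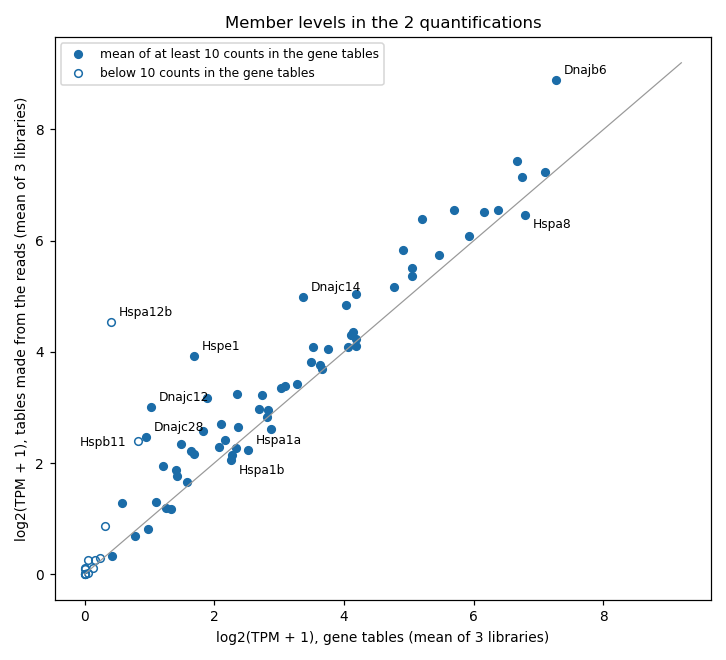
Mean log2(TPM + 1) of each of the 78 genes in the gene tables and in the tables made from the reads, with open points for genes under 10 counts in the gene tables and a line of equality. Hspa12b, Hspe1, Dnajc12 and Dnajb6 lie above the line, and Hspa1a, Hspa1b and Hspa8 lie just below it.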

How the data were processed

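Total RNA-seq of chromatin fraction RNA was measured in 3 libraries of 1 group. The authors deposited gene and transcript tables of expected counts and TPM, per the file headers in the column layout of RSEM, on mm10 with GENCODE M21, and transcript tables with estimated counts and TPM made from the reads, in the layout of kallisto. The sources used here give no aligner, program version or strand setting, so exonic overlap with an opposite gene is uncertain. Levels are the deposited TPM. Library differences used expected counts, rounded for the TMM factors of edgeR 4.0.16 (R 4.3.3), as log2 CPM with a prior count of 0.5. DESeq2 1.42.0 size factors served as an alternative. Entries that name no gene (1.13%, 0.324% and 0.279% of counts) were left out. Summed transcripts of the read-based tables were another alternative, beside other scalings, filters and leaving out each replicate. Because reads carried no molecular identifiers, they are not independent molecules, and intervals and floors cover counting error only.

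The members and lists were chosen with earlier results of these data known. No test was made. Named were Hspa1a, Hspa1b, the regulators, the 4 most abundant genes of each class, the 8 largest spans, genes at 0, the 3 highest and 3 most variable genes of each list, and the 5 extremes of isoform share and of quantification. Scripts were tested on simulated data. One gene that this rule names is not reported here. Cct6a was listed but not found by symbol.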

Additional observations from a re-analysis of the deposited data

How the results depend on the processing

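The spans of Hspa1a, Hspa1b and their sum kept their size under total count, protein-coding total and DESeq2 scaling, under a prior count of 5 and in the read-based tables, from 2.95 to 3.83 on the log2 scale. Leaving out 1 replicate at a time gave 1.29 to 3.21 for Hspa1a, 1.71 to 3.64 for Hspa1b and 1.55 to 3.38 for the sum. The count of members past 2-fold, 13, was 7 under a minimum mean of 100 counts and 20 with no filter, where the construction changes the genes counted, and 8 whichever replicate was left out. Intervals apart ranged from 23 to 29 without 1 replicate. Leaving out a replicate lowers spans and these counts largely by construction. The median TPM of 4.06 was 6.43 in the read-based tables and 13.6 when rescaled over protein-coding genes. The median log2 difference of the members was near 0, and its sign depended on scaling for replicate 2 minus replicate 1 and for replicate 3 minus replicate 2. For replicate 2 minus replicate 1, -0.14, it was -0.0245 with total count scaling, 0.12 with protein-coding total scaling and 0.0319 in the read-based tables. For replicate 3 minus replicate 1, -0.04, it was -0.12 with total count scaling and -0.11 in the read-based tables. For replicate 3 minus replicate 2, -0.01, it was -0.20, -0.24, 0.0018 and -0.0815 with total count, protein-coding total and DESeq2 scaling and in the read-based tables. A change of library scaling shifts the log2 differences of all genes nearly alike, so the shifts between scalings follow largely from the measure. The cause of the shift in the read-based tables was not tested. Medians of all genes were not recomputed under these alternatives, for the members or for the list below. The medians of the heat-inducible list kept their sign in every scaling run and in the read-based tables, but not their size: replicate 2 minus replicate 1, -0.56, ranged to -0.31 with protein-coding total scaling, and replicate 3 minus replicate 2, 0.40, was 0.16 there and 0.14 in the read-based tables. Replicate 2 was the lowest library for 12 of that list by CPM, 9 by TPM and 11 in the read-based tables. Of 79 alternatives to the summary results 59 stayed within their limits. The limit was a fixed fold for counts and, for other values, the same sign and a shift below the SD between libraries. That SD is wide where libraries differ: for the Hspa1a span it was 1.61, so 1.90 without replicate 2 stayed within it. The 59 are thus no measure of stability for these spans. Of 75 named genes the read-based tables moved the mean TPM of 45, 43 of them upward. No paired analysis was possible because there is 1 group. Genes under 10 counts and differences of low genes are limited by depth, and shares of isoforms by how reads were assigned.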

Other observations

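Processed pseudogenes that carry symbols of the family were left out by the requirement for a protein-coding transcript. There were 15 of them, and 2 reached a mean of 10 counts: Hspe1-ps5, on chromosome 2, with 18, 27 and 19 counts in replicates 1, 2 and 3, and Hspe1-ps2, on chromosome 12, with 14, 16 and 13 counts. Their levels of 20.2 and 11.6 TPM on average were above that of Hspe1 itself in the gene tables (2.21 TPM), as they are short. Hspe1 had 21, 19 and 18 counts there. How reads were divided between Hspe1 and these copies was not tested.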
